A study of Mus musculus with 21 samples.

Results

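The genes described here encode enzymes and regulators of sterol and fatty acid synthesis. They were 35 genes chosen by name from the 55573 genes of the table: 8 that lead by way of mevalonate to isoprenoids, 12 that lead on to cholesterol, 5 of sterol control and transport, and 10 of fatty acid synthesis. All 35 passed the filter on low counts. Messenger RNA came from breast cancer cells of the mouse grown in culture, in 21 libraries that form 7 groups of 3. E0771 is a transplantable breast cancer line from C57BL/6 mice, and the cells of all groups carried GFP. The first pair of groups combined overexpression of ZBTB18 with a TGFBR2 gene induced by doxycycline. Doxycycline, labelled as 1 mg/mL, was given to both. One of them, the TGF-β1 group, was also given 2 ng/mL of TGF-β1 and the other, the vehicle group, its vehicle; together they are called the receptor cells. The other groups were ZBTB18 overexpression alone (ZBTB18 cells), an empty vector, the lines M11GFP (M11) and M12GFP (M12), which the study recovered from spontaneous lung metastases, and the unmodified parental line, E0771GFP. Medium with 10% calf serum, which itself brings lipids, and 1% penicillin and streptomycin is given for all of them. Each construct and each metastasis is represented by 1 line, and the labels name neither a batch, nor the length of treatment, nor separate cultures for the replicates. The p-values therefore measure the spread between these libraries, which may be technical.

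Cells make cholesterol from acetyl-CoA. Acetyl-CoA is joined into HMG-CoA, which passes through mevalonate to farnesyl diphosphate; squalene made from it is closed into lanosterol and trimmed to cholesterol, while a branch to geranylgeranyl diphosphate serves protein prenylation. Fatty acid synthesis draws on the same acetyl-CoA, which acetyl-CoA carboxylase and fatty acid synthase turn into palmitate for elongases and desaturases to modify. SREBP transcription factors, encoded by Srebf1 and Srebf2, raise the genes of both routes when membrane sterol is low. SCAP carries SREBP from the endoplasmic reticulum to the Golgi for cleavage, INSIG holds it back when sterol is plentiful, and the gene for INSIG is itself an SREBP target. ZBTB18 is a transcriptional repressor that binds DNA with zinc fingers, and TGF-β binds to TGFBR2 at the cell surface.

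Libraries held 24208564 (M11 replicate 3) to 90518866 (vehicle replicate 1) counts. The introduced genes were checked first. Zbtb18 averaged 95.2 CPM in the TGF-β1 group, 82.9 CPM in the vehicle group and 113 CPM in ZBTB18 cells, against 25.1 CPM with the empty vector. Tgfbr2 averaged 604 and 588 CPM in the TGF-β1 and vehicle groups and 1.74 CPM in ZBTB18 cells, against 26.6 CPM with the empty vector. Of 6 epithelial markers, Krt8 stood at 154 to 342 CPM in every group, Epcam averaged at most 3.22 CPM, and Krt18, Krt19, Krt7 and Cdh1 averaged under 1 CPM except for Krt18 in M12 (3.01 CPM), so most defining markers of epithelium were at or near 0. Of 5 fibroblast markers, Dcn and Lum were at or near 0 in every group, while group means ran from 71.1 to 130 CPM for Pdgfra, 10.8 to 45.7 CPM for Pdgfrb and 0.593 to 38.8 CPM for Col1a1. Markers of fat cells, which make much lipid, summed to at most 3.25 CPM in any library, with Adipoq and Lep at or near 0. Lung epithelium markers summed to at most 0.137 CPM and endothelial ones to at most 3.99 CPM (M11). Among the 4 blood cell markers Ptprc stayed at or near 0, while Cd68 averaged 36.9 CPM in M12 and 4.85 CPM in the parental line. In bulk RNA of this kind, fewer cells of a type and less RNA per cell cannot be told apart.

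Some libraries stood apart, and each comparison is given with and without them. In parental replicate 1 a single ribosomal RNA-like gene, Gm42418, took 14% of counts, against at most 0.0918% elsewhere. Parental replicate 3 was the lowest of its group in 30 of the 35 genes (40.7% of all genes tested), and lay under 2/3 of both other replicates in 16 of them, or 45.7%, against 7.19% of all genes. Empty vector replicate 3 was lowest of its group in 28 of 35 (33.3% of all genes). Among the receptor cells, replicate 1 was highest and replicate 2 lowest in both groups for 24 of the 35 genes, or 68.6%, against 4.66% of all genes tested. The receptor libraries numbered 1 were also the deepest of their groups. The share of counts from the mitochondrial genome was 0.525 to 0.734% of counts in receptor libraries, 0.861 to 1.09% in ZBTB18 and empty vector libraries, and 1.8 to 3.42% in M11, M12 and parental libraries; whether these differences bear on the results below was not tested.

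The promoters show which letters the genes share before any measurement. RefSeq's table (build GRCm38.p6; 250 bases before to 50 after the start of transcription) held 28 of the 35 genes, with 35 promoters, beside 32851 promoters of all genes. Both strands were searched. CCAAT, the box bound by NF-Y, a usual partner of SREBP, stood in 23 of 28 genes, or 82.1%, against 41.1% of all genes. GGGCGG, the GC box of Sp1, was also in 82.1%, against 38.2%. These windows were richer in G and C (median 62.3%) than all promoters (52.7%). TCACNCCAC, a strict spelling of the sterol regulatory element, occurred in 1 gene, Hmgcs1, or 3.57%, against 1.44% of all genes. CACGTG, the E-box, stood in 5 of 28, or 17.9%, against 8.09%. ACATCTG, a spelling of the element bound by ZBTB18, was in 0 of the 28, against 5.1% of all genes. Hmgcs1 (chr13:119690101-119690400, plus strand) is printed as the promoter with the strict sterol element, Mvk (chr5:114444019-114444318, plus strand) and Nsdhl (chrX:72918271-72918570, plus strand) for their 5 and 4 CCAAT boxes, and Fads2 (chr19:10101454-10101753, minus strand) as a promoter with neither of these motifs. Each reads 5′ to 3′ on the gene's strand; capitals mark TCACNCCAC and CCAAT on either strand, written ATTGG where the box lies on the opposite one.
Hmgcs1: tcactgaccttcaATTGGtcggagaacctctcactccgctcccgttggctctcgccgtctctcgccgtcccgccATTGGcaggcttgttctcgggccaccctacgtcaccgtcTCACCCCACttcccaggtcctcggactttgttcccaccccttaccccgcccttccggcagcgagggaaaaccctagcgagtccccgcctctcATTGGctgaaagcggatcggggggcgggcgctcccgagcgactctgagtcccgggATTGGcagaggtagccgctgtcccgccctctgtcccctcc
Mvk: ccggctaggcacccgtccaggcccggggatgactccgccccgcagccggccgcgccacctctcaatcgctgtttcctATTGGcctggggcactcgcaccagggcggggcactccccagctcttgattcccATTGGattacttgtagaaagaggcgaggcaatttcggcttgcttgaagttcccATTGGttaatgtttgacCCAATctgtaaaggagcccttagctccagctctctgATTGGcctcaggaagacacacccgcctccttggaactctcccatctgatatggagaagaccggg
Nsdhl: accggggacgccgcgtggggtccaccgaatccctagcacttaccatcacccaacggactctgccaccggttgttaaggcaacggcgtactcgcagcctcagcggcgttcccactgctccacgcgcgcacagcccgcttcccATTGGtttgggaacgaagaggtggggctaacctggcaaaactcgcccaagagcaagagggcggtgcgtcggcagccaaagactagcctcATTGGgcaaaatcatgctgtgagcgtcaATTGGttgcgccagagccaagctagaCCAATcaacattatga
Fads2: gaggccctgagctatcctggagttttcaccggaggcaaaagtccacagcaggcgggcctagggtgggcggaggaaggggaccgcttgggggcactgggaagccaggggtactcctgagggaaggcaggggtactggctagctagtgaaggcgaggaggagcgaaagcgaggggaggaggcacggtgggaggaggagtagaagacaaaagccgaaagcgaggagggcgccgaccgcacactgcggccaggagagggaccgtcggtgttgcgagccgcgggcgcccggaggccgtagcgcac
A match describes letters in a window and no binding was measured. The lines below return to these 4 genes: Hmgcs1, Mvk and Nsdhl were higher in receptor cells, and so was Fads2, which holds no CCAAT box. As 32 of the 35 genes were higher with vehicle than in ZBTB18 cells, these 4 cannot show a part of the motifs, which was not tested.

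Levels were compared as CPM, read counts scaled to library size with TMM factors, and between genes only as TPM, which also divides by gene length. Sums over genes were set side by side as TPM, which has no TMM scaling. The 35 genes took 0.808 to 1.03% of all counts in the 6 receptor libraries and 0.267 to 0.445% in the other 15. Of the 7 groups, the TGF-β1 group had the highest mean for 20 genes and the vehicle group for 13, while M11 had the lowest for 13 and M12 for 11. Over all genes tested, 10.1% were highest in the TGF-β1 group and 14.4% in the vehicle group, and 11.3% were lowest in M11 and 18.4% in M12. The exceptions at the top were Scap, highest with the empty vector, and Ggps1, highest in M12. The widest ranges were those of Acss2, with a highest group mean 24 times the lowest, Tm7sf2 (21.4 times) and Fads2 (14.2 times), and the narrowest those of Ggps1 (1.63 times), Fasn (1.73 times) and Scap (1.76 times). By TPM, Fdps was the most abundant gene of the mevalonate steps (71.6 to 750 TPM over groups) and Scd2 of the fatty acid genes (125 to 466 TPM).

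**Figure D1:**
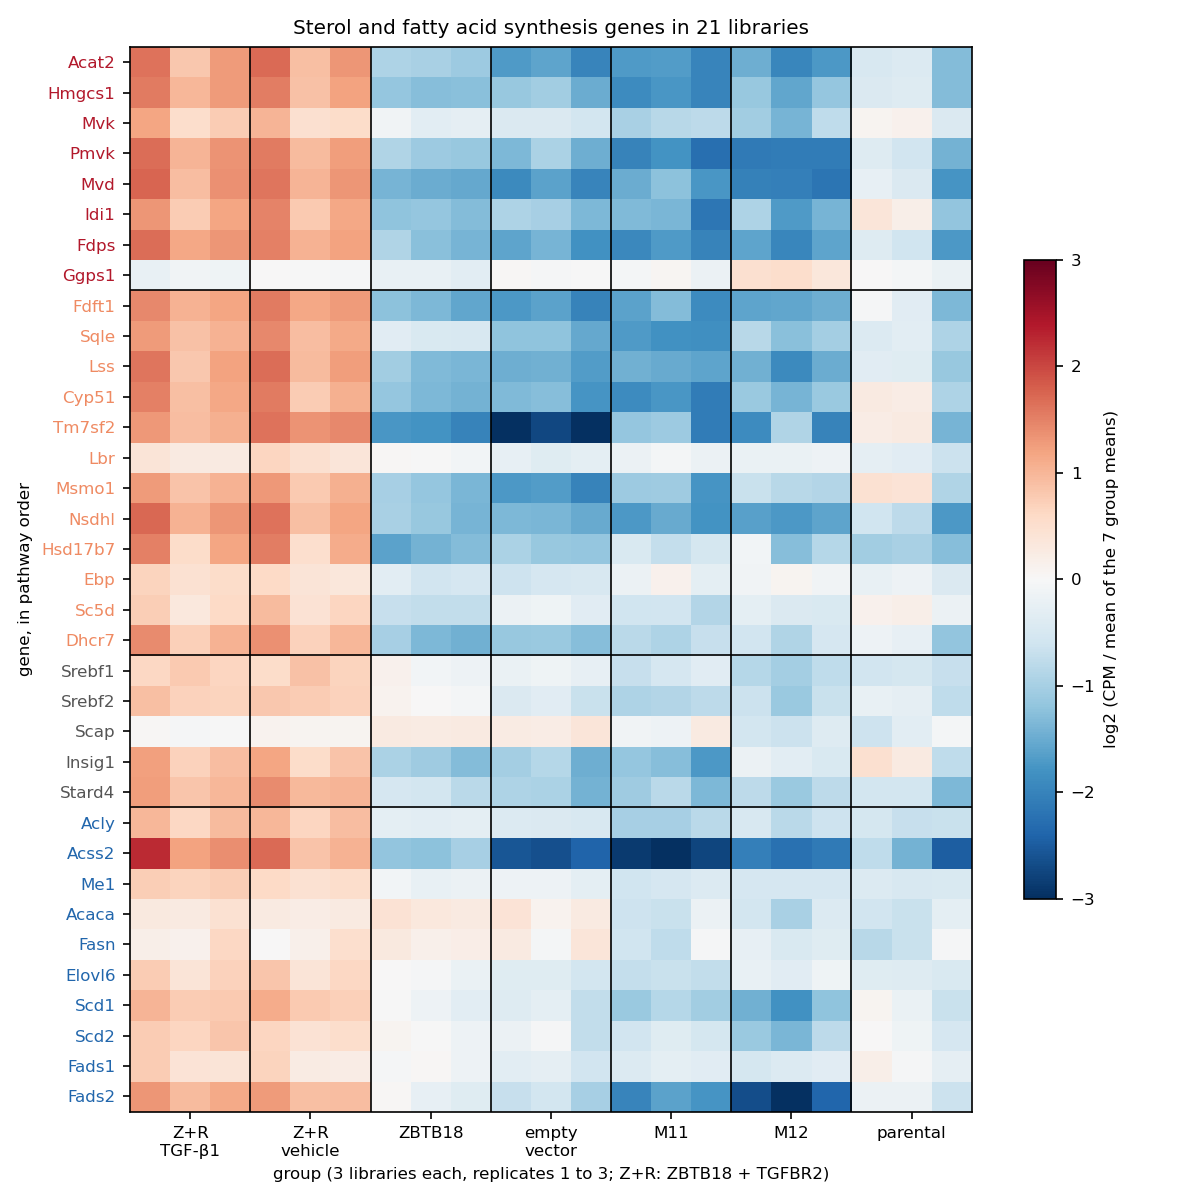
Level of each of the 35 genes (rows, in pathway order) in each of the 21 libraries (columns, 3 per group) as log2 of CPM over the mean of the 7 group means; colours end at -3 and 3, and Z+R stands for ZBTB18 + TGFBR2. The 6 receptor libraries are above the mean in most rows. By group means Ggps1, Fasn and Scap are the most even, with a highest mean at most 1.76 times the lowest. Parental replicate 3 is paler or bluer than its 2 companions in most rows.

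The receptor cells were compared with ZBTB18 cells lacking the receptor. In the vehicle group 32 of 35 genes were higher, or 91.4%, and 0 were lower, against 19.5% higher and 19.3% lower of the 15432 genes tested (edgeR's quasi-likelihood test, Benjamini-Hochberg adjusted p under 0.05). The median log2 fold change was 1.61 over the 35 genes and 0 over all genes. All 8 mevalonate genes rose (median 2.37) and 12 of 12 sterol genes (median 2.36), with 4 of 5 control genes (median 0.73) and 8 of 10 fatty acid genes (median 0.70). Summed over its genes, the mevalonate branch held 1970, 1340 and 1600 TPM in the vehicle group, against 376, 351 and 339 TPM in ZBTB18 cells. Steps from squalene to cholesterol summed to 1730, 1210 and 1380 TPM with vehicle, against 443, 427 and 406 TPM in ZBTB18 cells. Fatty acid genes summed to 1260, 1050 and 1150 TPM with vehicle and 772, 731 and 696 TPM in ZBTB18 cells. The groups did not overlap in any of these sums.

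**Figure D2:**
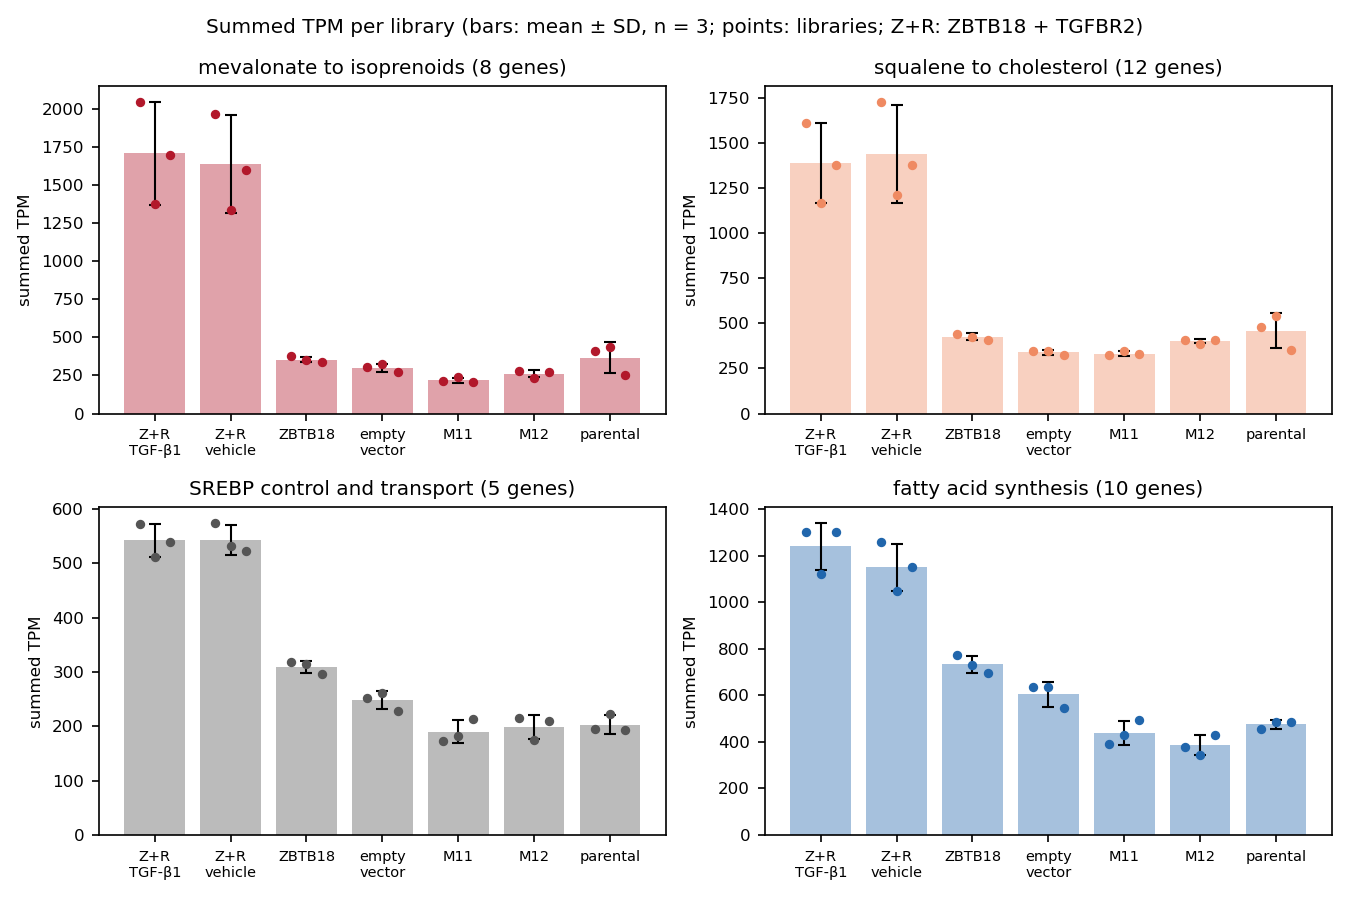
Summed TPM of the 4 gene groups in each library (points) with the mean ± SD of 3 libraries (bars); Z+R stands for ZBTB18 + TGFBR2. The mevalonate sum averaged 1710 TPM in the TGF-β1 group and 1640 TPM in the vehicle group, against at most 368 TPM in the other groups, while the fatty acid sum differed less, with 1240 and 1150 TPM against 733 TPM in ZBTB18 cells. On TPM, which has no TMM scaling, the median of all genes was shifted in comparisons with the parental line.

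Along the mevalonate route, Acat2, a thiolase that joins acetyl-CoA units, had 228, 130 and 176 CPM in the vehicle group, against 36.7, 35.3 and 32.9 CPM in ZBTB18 cells (log2 fold change 2.34 ± 0.24 SE, adjusted p = 8.4e-07, edgeR). Hmgcs1 (ENSMUSG00000093930.2, chr13:119690379-119708260 on mm10), the cytosolic HMG-CoA synthase, had 503, 320 and 402 CPM with vehicle and 77.2, 71.4 and 72.9 CPM in ZBTB18 cells. That is a log2 fold change of 2.47 ± 0.22 SE, and the lowest vehicle library was above every ZBTB18 library. Mvd, the decarboxylase that ends the mevalonate steps, had 157, 105 and 129 CPM with vehicle and 19.6, 18.4 and 17.7 CPM in ZBTB18 cells (2.81 ± 0.30). A gene on the opposite strand, Gm20388, covers Mvd and had more reads (114269 over all libraries, against 63397 for Mvd), so the level of Mvd is uncertain. Pmvk, phosphomevalonate kinase, Idi1, an isomerase, and Fdps, which makes farnesyl diphosphate, rose by log2 2.32, 2.40 and 2.44. Mvk, mevalonate kinase, rose less, with 61.5, 42.4 and 44.5 CPM with vehicle against 28, 24.5 and 25.1 CPM in ZBTB18 cells (0.94 ± 0.18). Ggps1, which leads off to geranylgeranyl diphosphate, had 66.8, 66.0 and 65.6 CPM with vehicle and 57.5, 57.1 and 53.6 CPM in ZBTB18 cells. Its change of 0.24 ± 0.076 was the smallest of the branch that passed (adjusted p = 0.016, edgeR), and it did not pass in 3 of 16 alternative analyses.

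From squalene on, Fdft1, squalene synthase, had 172, 129 and 141 CPM in the vehicle group, against 24.7, 22.9 and 19.7 CPM in ZBTB18 cells (2.72 ± 0.24). Its end overlaps the far more abundant Ctsb on the opposite strand by 774 bases. Sqle, squalene epoxidase and a rate-controlling step, had 474, 332 and 383 CPM with vehicle and 137, 127 and 126 CPM in ZBTB18 cells (1.61 ± 0.15). Lss, which closes the ring to lanosterol, rose by log2 2.57 and Cyp51, lanosterol demethylase, by 2.48. Tm7sf2 (ENSMUSG00000024799.16, chr19:6062821-6068373 on mm10) changed most of all 35 genes, with 48.8, 39.9 and 42.3 CPM with vehicle and 4.69, 4.55 and 3.92 CPM in ZBTB18 cells. This was 9.96-fold higher (log2 3.32 ± 0.37 SE, adjusted p = 2.4e-06, edgeR). Tm7sf2 shares 532 bases with Vps51 on the same strand. Lbr, the lamin B receptor of the nuclear envelope, carries the same sterol reductase activity as Tm7sf2, and it had 402, 355 and 328 CPM with vehicle against 260, 252 and 243 CPM in ZBTB18 cells, a change of only 0.52 ± 0.089.

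The later sterol enzymes split the same way. Msmo1, Nsdhl and Hsd17b7, which remove methyl groups from the sterol, rose by log2 2.23, 2.43 and 2.56. Hsd17b7 had 78.9, 38.3 and 59.1 CPM with vehicle, against 8.92, 10.1 and 11 CPM in ZBTB18 cells, and relative to its mean it varied most of the 35 between vehicle replicates. Ebp, a sterol isomerase, rose by 0.92, Sc5d, a sterol desaturase, by 1.42, and Dhcr7, a reductase of the last steps, by 2.29. None of these groups overlapped. Every vehicle library lay above every ZBTB18 library in 32 of the 35 genes, against 28.3% of all genes tested, and below in 1, against 28.9%.

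Among the control genes, Srebf2, whose product mainly drives sterol genes, had 628, 599 and 570 CPM in the vehicle group, against 381, 359 and 344 CPM in ZBTB18 cells (0.73 ± 0.13). Srebf1, whose product mainly drives fatty acid genes, had 210, 267 and 229 CPM with vehicle and 158, 136 and 130 CPM in ZBTB18 cells (0.73 ± 0.10). Both SREBP genes thus changed 1.66-fold, less than most of the enzymes. Insig1 had 166, 108 and 133 CPM with vehicle, against 38.1, 35 and 29.7 CPM in ZBTB18 cells (1.99 ± 0.27). Stard4, a carrier of cholesterol between membranes, rose by log2 1.77. Scap, the escort of SREBP, had 69.8, 69.1 and 69.1 CPM with vehicle and 78.5, 76.8 and 78.7 CPM in ZBTB18 cells. Its change of -0.17 ± 0.11 did not pass (adjusted p = 0.24, edgeR), although the libraries did not overlap; with the spread taken from the 6 libraries alone it was called lower (-0.16, adjusted p = 0.021).

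In fatty acid synthesis the genes that supply acetyl-CoA and those that desaturate the product rose, while the central pair did not pass. Acss2, which makes acetyl-CoA from acetate, had 80.1, 44.7 and 50.9 CPM in the vehicle group, against 10.9, 10.4 and 12.4 CPM in ZBTB18 cells (2.38 ± 0.33). Gss on the opposite strand overlaps Acss2 over 22544 bases, with 24240 reads over all libraries against 31758 for Acss2, so the level of Acss2 is uncertain here and in the other comparisons. Acly, which makes it from citrate, had 366, 288 and 348 CPM with vehicle and 150, 146 and 149 CPM in ZBTB18 cells (1.17 ± 0.10). Me1, a source of NADPH, rose by log2 0.70. Acaca, acetyl-CoA carboxylase, had 149, 144 and 149 CPM with vehicle against 168, 155 and 149 CPM in ZBTB18 cells (-0.09 ± 0.13, adjusted p = 0.62, edgeR). Fasn, fatty acid synthase, had 363, 400 and 514 CPM with vehicle and 444, 400 and 415 CPM in ZBTB18 cells (0.02 ± 0.20, adjusted p = 0.95, edgeR). For both genes the groups overlapped. Elovl6, an elongase, rose by 0.69. Of the desaturases, Fads2 had 295, 227 and 230 CPM with vehicle and 124, 103 and 94.3 CPM in ZBTB18 cells (1.23 ± 0.17), and Scd1, Scd2 and Fads1 rose by log2 1.03, 0.56 and 0.44. Fads1 did not pass without vehicle replicate 1.

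Other genes of these pathways moved less as a body. Of 20 further fatty acid genes 12 were higher with vehicle and 4 lower (median log2 0.42), of 14 genes of regulation, uptake, storage and export 5 were higher and 3 lower (0.17), and of 10 further sterol and isoprenoid genes 3 were higher and 1 lower (0.05). The shares over all genes tested were 19.5% higher and 19.3% lower. Lpin1, a phosphatidate phosphatase, had 95.7, 81.9 and 86.7 CPM with vehicle, against 24.1, 26.4 and 22.6 CPM in ZBTB18 cells (log2 1.85). Acacb, the mitochondrial acetyl-CoA carboxylase, and Slc25a1, the mitochondrial citrate carrier, rose by log2 1.64 and 1.42. Lipa, the lysosomal lipase that frees cholesterol from its esters, had 4.17, 4.81 and 4.47 CPM with vehicle and 20.2, 23.8 and 22.3 CPM in ZBTB18 cells (-2.30). Elovl7, another elongase, changed by -1.88.

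Leaving out each library in turn left 31 or 32 of the 35 genes higher, without vehicle replicate 1 as well (31, median log2 1.46). Genes of chromosome 19 as a whole were shifted down (median log2 -0.21 over 540 genes), yet all 5 genes on it, Tm7sf2, Scd1, Scd2, Fads1 and Fads2, were higher. Of the fibroblast markers, Col1a1 (11, 11.1 and 7.91 CPM with vehicle, against 1.68, 0.851 and 0.438 CPM in ZBTB18 cells, log2 3.34) and Pdgfrb (log2 0.99) were also higher, Pdgfra was not past the threshold, Dcn and Lum were at or near 0, and the list summed to 136 to 148 CPM with vehicle and 125 to 157 CPM in ZBTB18 cells; their part in the result was not tested. The groups differ in the receptor, in doxycycline, in the line and in any difference of culture, which cannot be told apart.

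**Figure D3:**
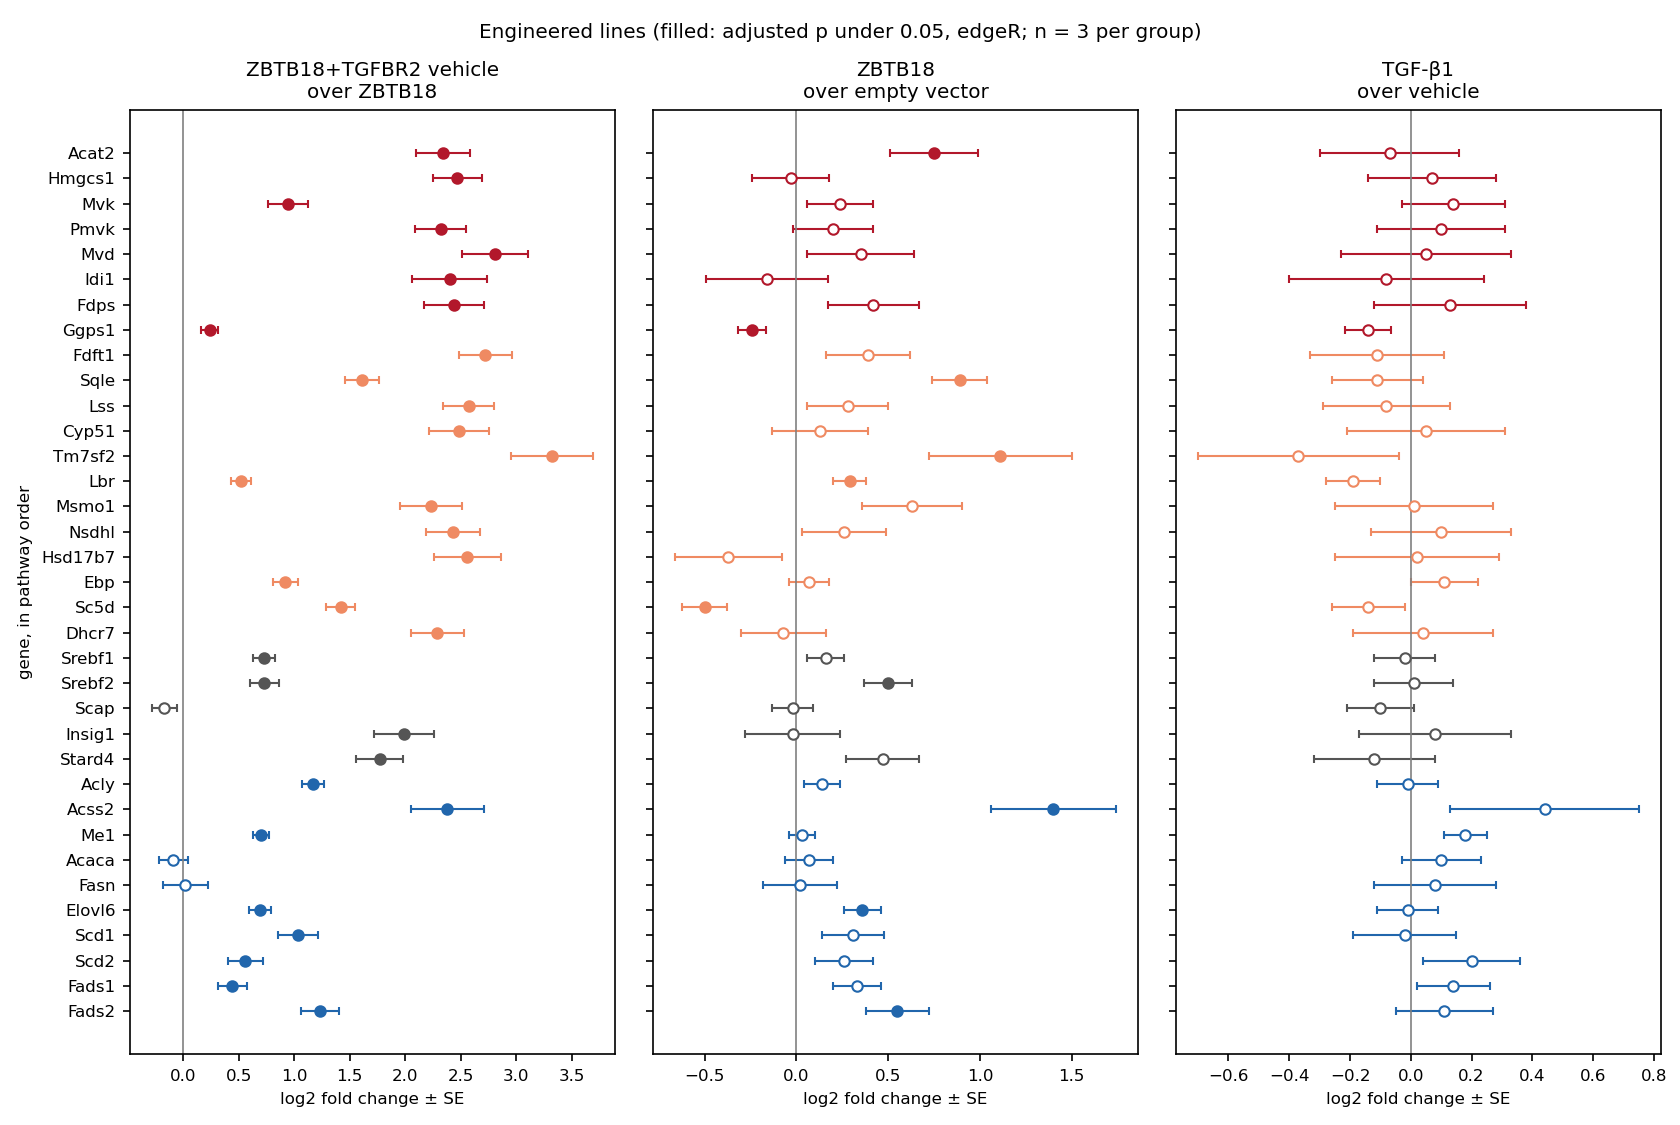
Log2 fold change ± SE of each gene (rows, in pathway order) between engineered lines, from 3 libraries per group; filled points have an edgeR adjusted p under 0.05. With vehicle against ZBTB18 cells 32 of 35 points are filled, reaching 3.32 for Tm7sf2, whereas for TGF-β1 against vehicle all 35 are open and lie between -0.37 and 0.44; for ZBTB18 cells against the empty vector 10 are filled, from -0.50 to 1.40.

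TGF-β1 was compared with vehicle within the receptor cells. 0 of the 35 genes passed in either direction, against 1.91% of all genes tested by edgeR, of which 1.26% were higher and 0.654% lower. DESeq2 and limma-voom also called 0, and 2 genes, Me1 and Lbr, had an unadjusted p under 0.05. Hmgcs1 had 514, 348 and 423 CPM in the TGF-β1 group, against 503, 320 and 402 CPM in the vehicle group (log2 0.07, 95% interval -0.37 to 0.51). Sqle had 426, 320 and 359 CPM with TGF-β1 and 474, 332 and 383 CPM with vehicle (-0.11, -0.43 to 0.22). In both genes the groups overlapped, while within same-numbered pairs Hmgcs1 was higher and Sqle lower with TGF-β1 in 3 of 3. Neither passed with the replicate number as a block (adjusted p = 0.94 and 0.79, edgeR). That block was common to all 7 groups, so it did not test the change within these pairs. Srebf2 had 669, 575 and 564 CPM with TGF-β1 and 628, 599 and 570 CPM with vehicle (0.01, -0.27 to 0.29), and Fasn had 405, 392 and 554 CPM with TGF-β1 and 363, 400 and 514 CPM with vehicle (0.08, -0.35 to 0.51). The changes ran from -0.37 for Tm7sf2, with 38.8, 29.8 and 32.7 CPM with TGF-β1 against 48.8, 39.9 and 42.3 CPM with vehicle, to 0.44 for Acss2, with 116, 57.1 and 65.0 CPM with TGF-β1 against 80.1, 44.7 and 50.9 CPM with vehicle. Tm7sf2 did not overlap between the groups. Every TGF-β1 library lay below every vehicle library in 3 of the 35 genes, against 13.6% of all genes tested, and above in 2, against 14.1%. Acss2 overlapped, but was higher with TGF-β1 in 3 of 3 same-numbered pairs. With the replicate number as a block its change was 0.43 (adjusted p = 0.51, edgeR). Intervals of single genes reached at most 1.1 on the log2 scale, the upper limit for Acss2. Acss2 was called higher (0.44, adjusted p = 0.011, edgeR) where no filter on low counts was applied. Me1 had 166, 156 and 164 CPM with TGF-β1 and 150, 135 and 143 CPM with vehicle; its change of 0.18 had the lowest adjusted p of the 35 (0.24, edgeR). Of the other pathway genes 0 of 20, 0 of 14 and 0 of 10 passed. Leaving out single libraries or using the replicate number as a block left 0 of the 35 called. The fibroblast marker Col1a1 was higher, with 42.3, 43.1 and 31.1 CPM with TGF-β1 and 11, 11.1 and 7.91 CPM with vehicle (log2 1.95).

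ZBTB18 cells were compared with the empty vector, the contrast the series names as its aim. Of the 35 genes 8 were higher, or 22.9%, against 14% of all genes tested, and 2 were lower, against 14.5%. The median log2 fold change was 0.26, against 0.01 over all genes. Acss2 had 10.9, 10.4 and 12.4 CPM in ZBTB18 cells, against 4.18, 3.96 and 4.68 CPM with the empty vector (log2 1.40 ± 0.34 SE, adjusted p = 0.0055, edgeR). Sqle had 137, 127 and 126 CPM in ZBTB18 cells and 75.5, 75.7 and 59.9 CPM with the empty vector (0.89 ± 0.15). Acat2 had 36.7, 35.3 and 32.9 CPM in ZBTB18 cells and 21.5, 23.3 and 17.7 CPM with the empty vector (0.75 ± 0.24). In all 3 the groups were apart, but Acat2 did not pass without ZBTB18 replicate 1 or 2 or empty vector replicate 1 or 3. Every ZBTB18 library lay above every empty vector one in 17 of the 35 genes, against 24.9% of all genes tested. In 3 genes every one lay below, against 24.7%. Tm7sf2 was low throughout, with 4.69, 4.55 and 3.92 CPM in ZBTB18 cells and 1.89, 2.38 and 1.85 CPM with the empty vector (1.11 ± 0.39), and it did not pass when any single library was left out. Srebf2 had 381, 359 and 344 CPM in ZBTB18 cells and 264, 281 and 223 CPM with the empty vector (0.50 ± 0.13). Fads2, Elovl6 and Lbr rose by log2 0.55, 0.36 and 0.29; Fads2 and Elovl6 did not pass without ZBTB18 replicate 1 or empty vector replicate 3, nor Lbr without ZBTB18 replicate 1 or 2 or empty vector replicate 2.

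The 2 genes that fell in ZBTB18 cells were Sc5d and Ggps1. Sc5d had 68.2, 65.4 and 65.9 CPM in ZBTB18 cells, against 96.7, 99.5 and 86.5 CPM with the empty vector (-0.50 ± 0.12). Ggps1 had 57.5, 57.1 and 53.6 CPM in ZBTB18 cells and 68.0, 65.3 and 66.0 CPM with the empty vector (-0.24 ± 0.076). By step, 1 of 8 mevalonate genes was higher and 1 lower, 3 of 12 sterol genes were higher and 1 lower, and 1 of 5 control and 3 of 10 fatty acid genes were higher. Hmgcs1 (-0.03), Insig1 (-0.02), Fasn (0.02) and Scap (-0.02) lay close to 0.

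Chromosomes as a whole were shifted in this comparison. Chromosome 13, with Hmgcs1, Idi1 and Ggps1, had a median log2 change of -0.29 over 609 genes, and chromosome 19, with Tm7sf2, Scd1, Scd2, Fads1 and Fads2, one of 0.28 over 540 genes. Ggps1 lay 0.05 above the median of its chromosome and Fads2 0.27 above, while Acss2 lay 1.35 and Sqle 0.77 above theirs. The part of these shifts in the calls was not tested. The count of higher genes fell to 3 without ZBTB18 replicate 1, 4 without empty vector replicate 3 and 5 without ZBTB18 replicate 2, and it reached 15 with no filter and 17 with the 6 libraries alone. The lower count fell to 1 without empty vector replicate 1 or ZBTB18 replicate 3. Of the other pathway genes, 8 of 20 fatty acid genes were higher and 3 lower, 6 of 14 regulation and transport genes were higher and 2 lower, and 1 of 10 sterol and isoprenoid genes was higher and 3 lower. The shares over all genes tested were 14% higher and 14.5% lower. Acacb rose by log2 1.95 and Elovl7 changed by -1.29.

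**Figure D4:**
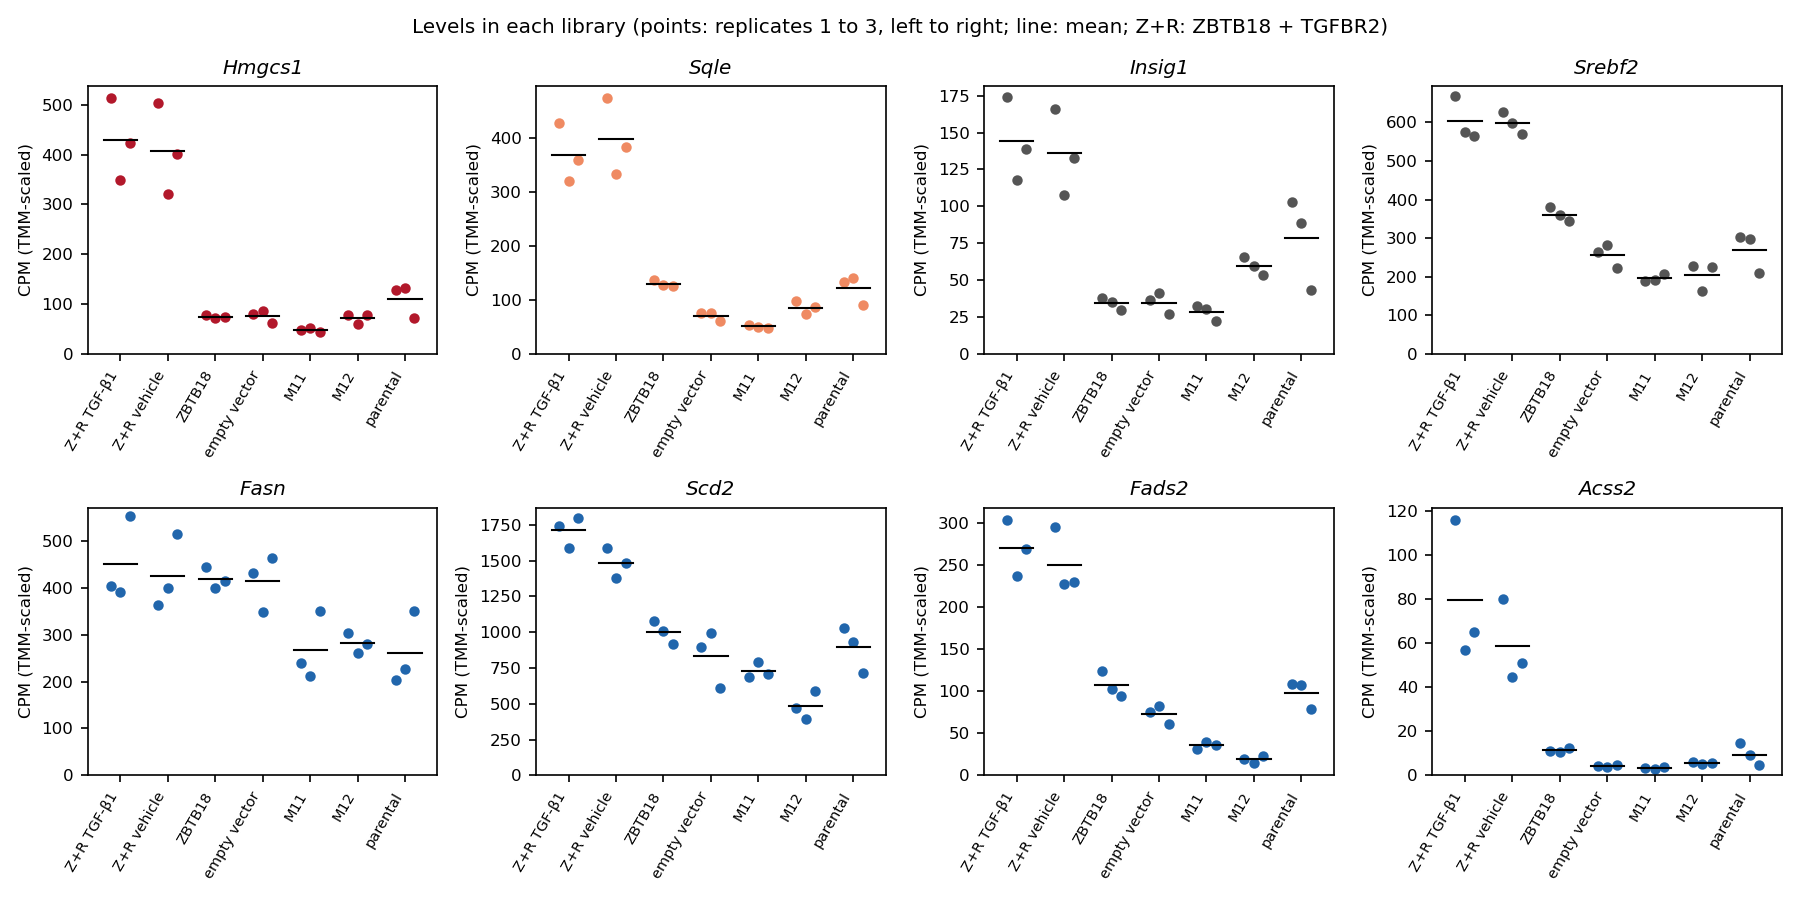
CPM of 8 genes in each library (points, replicates 1 to 3 from left to right) with the group mean (line); Z+R stands for ZBTB18 + TGFBR2. All of these genes except Fasn separate the receptor libraries from all others. Insig1 does so by the least, with 108 CPM in vehicle replicate 2 against 103 CPM in parental replicate 1. Fads2 is lowest in M12, with 19.3, 14.6 and 23.3 CPM.

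M11 and M12 were each compared with the parental line, to which both comparisons refer, so that their values share the same 3 control libraries. In M11, 23 of the 35 genes were lower, against 20% of all genes tested, and 2 were higher, against 20.8%; the median log2 fold change was -0.72. In M12, 21 were lower, against 25.2% of all genes tested, and 2 were higher, against 24.9%; the median was -0.51. By step, 7 of 8 mevalonate genes and 8 of 12 sterol genes were lower in each line, and 2 of 5 control genes. Fatty acid genes were lower in 6 of 10 in M11 and 4 of 10 in M12. The mevalonate branch summed to 211, 238 and 209 TPM in M11 and 279, 235 and 272 TPM in M12, against 414, 436 and 255 TPM in the parental line, whose replicate 3 lay within the M12 range. These sums have no TMM scaling. On log2(TPM + 1) the median change of all genes was 0.14 in M11 and 0.17 in M12.

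Fads2 (ENSMUSG00000024665.8, chr19:10062765-10101746 on mm10), the desaturase that opens the route to long polyunsaturated fatty acids, had the largest change of the 35 in M12 but not in M11. It had 31.1, 39.8 and 35.5 CPM in M11 and 19.3, 14.6 and 23.3 CPM in M12, against 108, 107 and 78.4 CPM in the parental line. The log2 fold changes were -1.46 ± 0.17 SE in M11 (adjusted p = 1.3e-06, edgeR) and -2.36 ± 0.18 SE in M12 (adjusted p = 2.1e-09, edgeR), and no groups overlapped. Every M11 library lay below every parental one in 18 of the 35 genes, against 19.6% of all genes tested. For M12 this held for 14, against 23.5%. Scd1, a desaturase of saturated fatty acids, had 113, 137 and 120 CPM in M11 and 90, 70 and 107 CPM in M12, against 262, 214 and 154 CPM in the parental line (-0.77 and -1.24). Its neighbour Scd2 passed in M12 (-0.88) and not in M11 (-0.29). In M12 all 5 genes on chromosome 19 were lower although the chromosome as a whole was shifted up (median log2 0.24). Other chromosomes were shifted down along with their genes. In M11 this was chromosome 5 (-0.28), from whose median Mvk, Cyp51 and Insig1 differed by -0.53, -1.57 and -1.18. In M12 it was chromosome 8 (-0.33), with Mvd and Msmo1 at -1.08 and -0.56 from its median. Lss differed by -0.72 from chromosome 10 (-0.31). The part of these shifts in the falls was not tested.

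Sterol genes fell as well. Cyp51 had 33.6, 37.1 and 28.8 CPM in M11 and 57.0, 47.3 and 57.5 CPM in M12, against 149, 144 and 65.2 CPM in the parental line (-1.85 and -1.15). Idi1 had 37.8, 36.7 and 21.3 CPM in M11 and 50.1, 29.1 and 36.1 CPM in M12, against 122, 107 and 41.7 CPM in the parental line (-1.49 and -1.23). Sqle had 54.2, 49.5 and 48.4 CPM in M11 and 97.5, 73.1 and 85.8 CPM in M12, against 132, 141 and 91.2 CPM in the parental line (-1.26 and -0.51). In Idi1 and Sqle, M12 overlapped the parental line through its replicate 3. Pmvk, phosphomevalonate kinase, fell by 1.28 in M11 and by 1.38 in M12, and neither line overlapped the parental line. Insig1 had 32.7, 30.3 and 22.3 CPM in M11, against 103, 88.9 and 43.3 CPM in the parental line (-1.46), while its change in M12 of -0.40 did not pass (adjusted p = 0.21, edgeR). Sqle did not pass in M12 without parental replicate 2 or M12 replicate 2. Srebf2 changed by -0.46 in M11 and -0.40 in M12 on the log2 scale. Its call in M11 was lost on both TPM scales (-0.23), and that in M12 was lost in 6 of 16 alternatives, among them those without parental replicate 1 or 2 or M12 replicate 2 and both TPM scales (-0.05).

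The genes that were higher were few. Lbr had 227, 247 and 225 CPM in M11 and 221, 224 and 229 CPM in M12, against 211, 202 and 163 CPM in the parental line (0.28 and 0.23). Without parental replicate 3, Lbr passed in neither line. Its call held in 13 of 16 alternatives in M11 and in 9 of 16 in M12. In M12 it was also lost without parental replicate 2 or any single M12 library. Chromosome 1, which carries Lbr, was shifted up as a whole in both lines (median log2 0.40 in each). Scap passed in M11 (0.33 ± 0.11), although not without parental replicate 1 or 2 or M11 replicate 3, and Ggps1 in M12, with 93.3, 96.8 and 84.6 CPM in M12 against 66.9, 64.1 and 58.0 CPM in the parental line (0.54 ± 0.076). Fasn had 239, 213 and 350 CPM in M11 and 303, 262 and 281 CPM in M12, against 203, 226 and 351 CPM in the parental line (0.04 and 0.12), and Acaca changed by 0.03 and -0.12; neither gene passed in either line. In Fasn, unlike most of the genes, parental replicate 3 was the highest of its group.

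Without parental replicate 3, the library with the lowest levels, 26 genes were lower in M11 and 23 in M12. Without parental replicate 1 there were 18 and 16, and over all single libraries left out 18 to 26 and 15 to 23. With the 6 libraries of the comparison alone 13 were lower in M12 and 1 higher. TPM, which has no TMM scaling, shifted the median of all genes upward by 0.14 to 0.23 in these comparisons; on log2(TPM + 1), 3 genes were higher and 17 lower in M11, and 4 higher and 13 lower in M12. Of the other pathway genes in M11, 2 of 20 fatty acid genes were higher and 11 lower, 5 of 14 regulation and transport genes were higher and 2 lower, and 1 of 10 sterol and isoprenoid genes was higher and 5 lower. In M12 the counts were 2 and 8, 5 and 6, and 1 and 3. Over all genes tested, 20.8% were higher and 20% lower in M11, and 24.9% higher and 25.2% lower in M12. Soat1, which esterifies cholesterol for storage, had 164, 178 and 146 CPM in M12, against 52.7, 48.5 and 53.6 CPM in the parental line (1.66). Npc1, which moves cholesterol out of lysosomes, had 81.4, 148 and 74.8 CPM in M12 and 41.9, 34.5 and 38.4 CPM in the parental line (1.41). The sterol-sensing nuclear receptor gene Nr1h3 changed by -1.83 in M12, Tecr, an enzyme of fatty acid elongation, by -1.22, and Oxsm, of mitochondrial fatty acid synthesis, by -1; Acacb rose by 1.54 in M12 and 1.43 in M11. In M11, Pggt1b, a prenyltransferase subunit, and Abcg1, a sterol exporter, rose by 1.33 and 1.32, and Cyp27a1, a sterol hydroxylase, changed by -1.15.

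**Figure D5:**
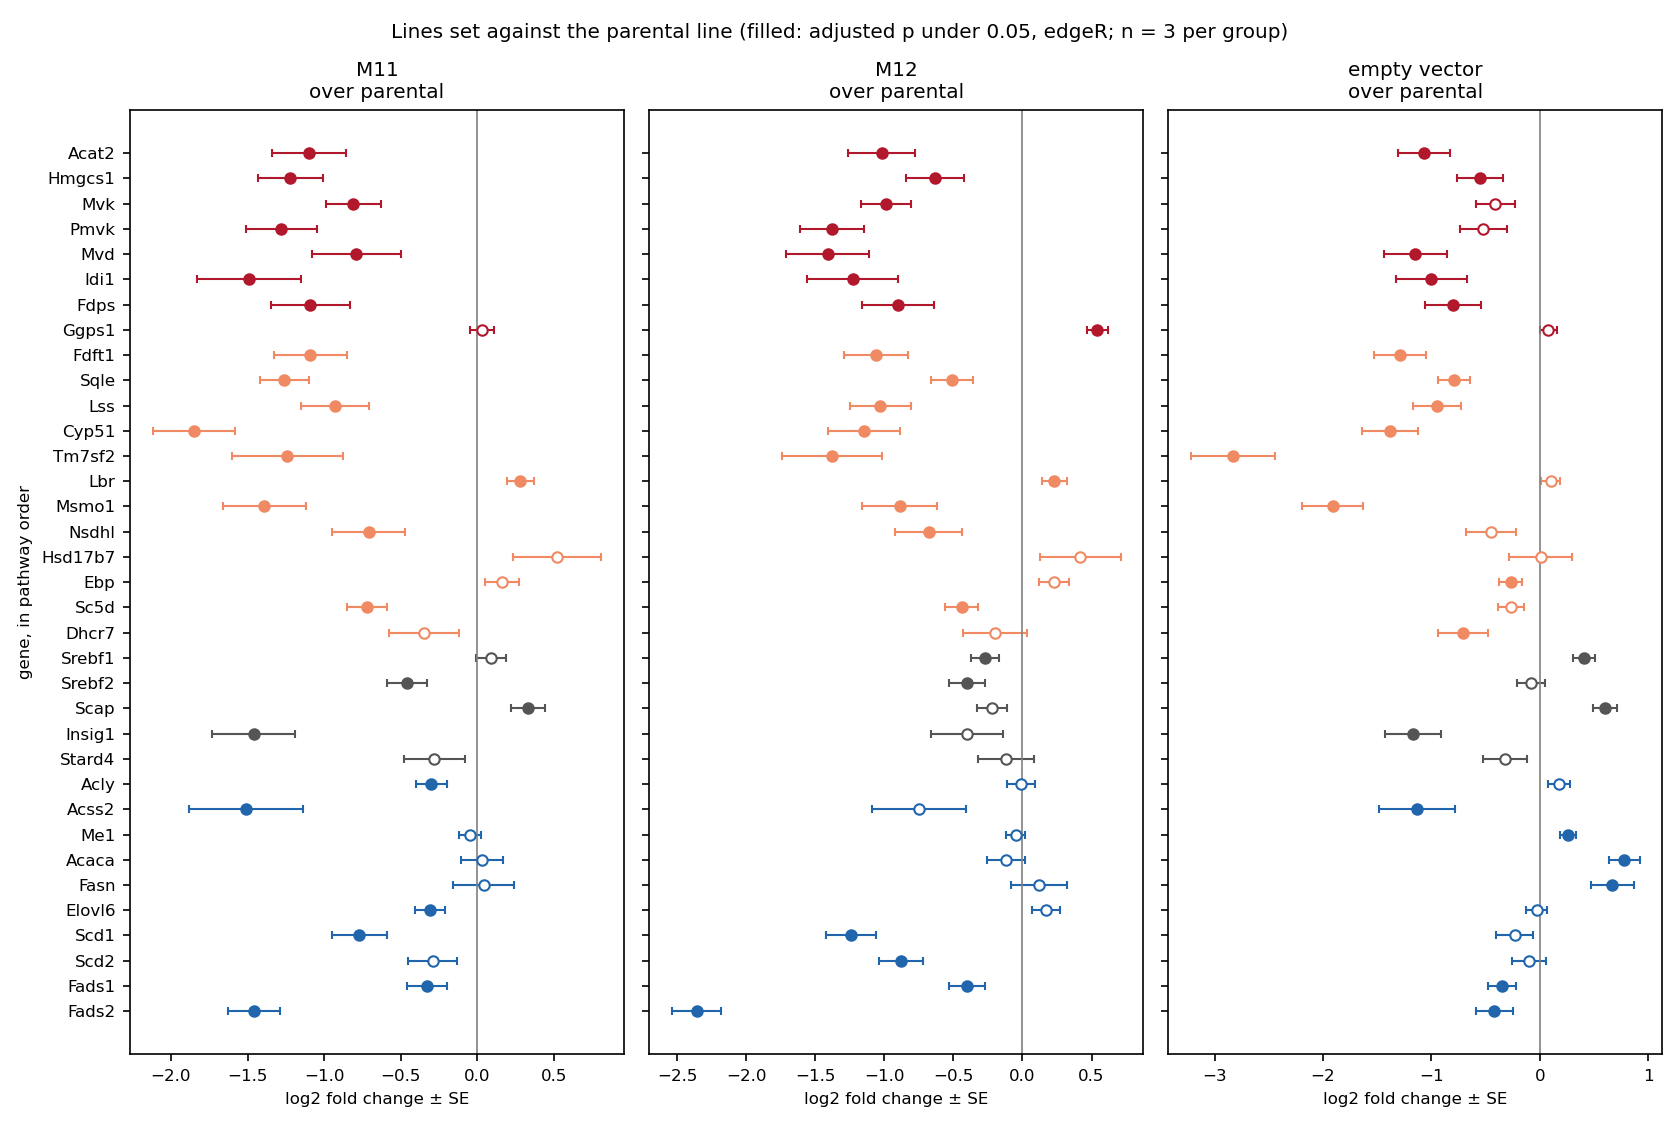
Log2 fold change ± SE of each gene (rows, in pathway order) in M11, M12 and empty vector cells, each over the same 3 parental libraries; filled points have an edgeR adjusted p under 0.05, and the panels differ in their x axes. Most mevalonate and sterol genes lie left of 0 in all 3 panels, Fads2 reaches -2.36 in M12, and Acaca and Fasn lie right of 0 only in the empty vector panel among filled points.

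The difference between the metastasis lines was tested directly. M11 was higher than M12 in 5 of the 35 genes, against 17.7% of all genes tested, and lower in 6, against 17.8%; both shares, 14.3 and 17.1%, lay near that background. The median was -0.06. The genes higher in M11 were Fads2 (0.89 ± 0.17), Scd2, with 684, 794 and 711 CPM in M11 against 473, 392 and 587 CPM in M12 (0.59 ± 0.16), Scap (0.55), Scd1 (0.47) and Srebf1 (0.36). Insig1 was lower in M11, with 32.7, 30.3 and 22.3 CPM against 65.4, 59.4 and 53.2 CPM in M12 (-1.06 ± 0.27, adjusted p = 0.0050, edgeR). Sqle (-0.75), Hmgcs1 (-0.59), Ggps1 (-0.51), Elovl6 (-0.48) and Acly (-0.29) were lower as well. Hmgcs1 and Scd1 each did not pass in 5 of the 6 fits with a library left out, and Acly in 4 of 6. Insig1 lies on chromosome 5, which was shifted down as a whole in M11 against M12 (median log2 -0.33). Same-numbered M11 and M12 libraries deviated together. With the replicate number as a block common to all 7 groups, Cyp51 (-0.71, adjusted p = 0.025, edgeR) and Sc5d (-0.28, adjusted p = 0.047, edgeR) were lower too. Without the block they had -0.70 (adjusted p = 0.051, edgeR) and -0.27 (adjusted p = 0.095, edgeR). With no filter 10 genes were lower in M11. On log2(TPM + 1) 2 genes were higher and 8 lower. Of the other pathway genes, 3 of 20 fatty acid genes were higher in M11 and 6 lower, 5 of 14 regulation and transport genes were higher and 1 lower, and 1 of 10 sterol and isoprenoid genes was higher and 3 lower. Abcg1 (1.49) and Nr1h3 (1.48) were the largest of these.

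The empty vector cells were compared with the parental line to see how far the control itself stood from it. Of the 35 genes 17 were lower, against 29% of all genes tested, and 5 were higher, against 28.9%. The median was -0.41. Tm7sf2 had 1.89, 2.38 and 1.85 CPM with the empty vector, against 18.2, 18.9 and 5.99 CPM in the parental line (-2.83 ± 0.39 SE, adjusted p = 1.5e-05, edgeR). Msmo1 had 55.1, 56.8 and 45.2 CPM with the empty vector and 250, 241 and 98.0 CPM in the parental line (-1.91 ± 0.28), and Cyp51, Fdft1 and Insig1 changed by -1.38, -1.29 and -1.17. In these genes every empty vector library was below every parental one. That held for 9 of the 35 genes, against 29.9% of all genes tested. The genes that were higher were of fatty acid synthesis and SREBP control. Acaca had 166, 134 and 151 CPM with the empty vector and 82.8, 78.4 and 101 CPM in the parental line (0.78 ± 0.14). Fasn had 432, 348 and 463 CPM with the empty vector and 203, 226 and 351 CPM in the parental line (0.67 ± 0.20), with parental replicate 3 inside the empty vector range. Scap, Srebf1 and Me1 rose by log2 0.60, 0.41 and 0.26.

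By step, 5 of 8 mevalonate and 8 of 12 sterol genes were lower with the empty vector and 0 higher, 1 of 5 control genes was lower and 2 higher, and 3 of 10 fatty acid genes were lower and 3 higher. The count of lower genes was 9 without parental replicate 1, 10 without empty vector replicate 3, and 23 without parental replicate 3. On log2(TPM + 1) 10 were higher and 9 lower, so this split depends on the scaling. Of the other pathway genes 4 of 20 fatty acid genes were higher and 8 lower, 3 of 14 regulation and transport genes were higher and 3 lower, and 4 of 10 sterol and isoprenoid genes were higher and 3 lower. The shares over all genes tested were 28.9% higher and 29% lower. Abcg1 and Pggt1b rose by log2 1.49 and 1.48 and Cyp27a1 changed by -1.22.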

How the data were processed

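The authors deposited expected counts per gene from RSEM, not normalized, and TPM, which corrects for the length of each gene and gives every library the same total. The submitters' processing notes name RSEM, the aligner STAR (2.7.1a), GATK (4.1.2.0), Trim Galore and, as build, mm10; the annotation release, the order of steps and the use of strand in counting are not given in the sources used here. Where genes overlap on opposite strands, or have close relatives (Acat2, Scd1, Scd2), reads may be shared. FPKM was not used. Groups and replicate numbers came from the sample titles. The 92 spike-in entries had 0 reads and were left out. Expected counts (1.28% not whole) were rounded. Positions are from GENCODE vM21, which held 99.68% of the identifiers when versions were ignored.

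Counts were fitted in R 4.3.3 with edgeR 4.0.16 (TMM, its filter on low counts by group, 15432 genes, quasi-likelihood F-test with robust spread, 1 mean per group over 21 libraries, 14 residual degrees of freedom). All tests are two-sided, and the Benjamini-Hochberg adjustment covers every gene tested in a comparison; the threshold was 0.05. The SE is the absolute log2 fold change over the square root of F. Replicates were compared by chi-square per degree of freedom (8.78 to 561), and none agreed within sampling noise. The libraries carry no molecular identifiers. Alternatives were DESeq2 1.42.0, its size factors, limma-voom (limma 3.58.1), no filter, a fit of only the 6 libraries compared, a minimum of 1 CPM in 3 libraries, the replicate number as a block, limma with TPM on a log2 scale (pseudocounts 1 and 0.1), scaling without Gm42418 and mitochondrial genes, and each library left out. Same-numbered libraries deviated together for TGF-β1 and vehicle (correlations 0.48, 0.23 and 0.54) and for M11 and M12 (0.22, 0.44 and 0.29), so these numbers were taken to pair the libraries. The block was nevertheless common to all 7 groups and not a fit of these pairs alone.

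The 35 genes, the lists of other pathway genes and of cell type markers, and the rule for naming were chosen with earlier results of these data known. All 35 were named; of the other pathway genes, those past the threshold with a log2 change of at least 1 and at least 5 CPM in the higher group, at most 3 in each direction of a comparison.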

Additional observations from a re-analysis of the deposited data

How the results depend on the processing

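For each comparison, 560 gene values under alternatives were set against those reported. A value was counted as kept if it stayed on its side of the threshold, and in the same direction where called. The direction of values called in neither fit was not counted. Kept were 555 for the vehicle group against ZBTB18 cells, 559 for TGF-β1 against vehicle and 508 for ZBTB18 against the empty vector. The others were 500 and 498 for M11 and M12 against the parental line, 516 for M11 against M12, and 484 for the empty vector against the parental line. With no filter 15 genes were higher in ZBTB18 cells than with the empty vector (8 as reported), 1 was higher with TGF-β1 than vehicle (0) and 10 were lower in M11 than in M12 (6). With the 6 libraries of a comparison alone 17 were higher in ZBTB18 cells than with the empty vector, 1 was lower with vehicle than in ZBTB18 cells (0), 1 was higher in M11 (2), and 1 was higher and 13 lower in M12 (2 and 21) than in the parental line. On log2(TPM + 1), 4 were higher and 13 lower in M12, and 10 higher and 9 lower with the empty vector (5 and 17), than in the parental line, and 2 were higher in M11 than in M12 (5). On log2(TPM + 0.1) these were 4 higher in M12, 10 higher and 10 lower with the empty vector, and 2 higher in M11. Sign changes on these 2 scales were counted only for genes called as reported or on the scale itself. Of these, 3 that had been below 0 with the empty vector against the parental line changed sign. They were Ebp (0.01 and 0.01), Srebf2 (0.28 and 0.29) and Elovl6 (0.32 and 0.34). Genes called in neither fit may have changed sign as well. The median of all genes moved by up to 0.29 on these scales. Leaving out single libraries gave 3 to 7 higher and 1 to 2 lower in ZBTB18 cells than with the empty vector, 1 to 2 higher in M11 and 1 to 2 in M12 than in the parental line, and 9 to 23 lower with the empty vector than in the parental line. A group left with 2 libraries shares the spread of the others. Other causes of these differences were not tested.

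With the replicate number as a block, 5 genes were higher and 8 lower in M11 than in M12 (5 and 6 without it). The block changed no call for TGF-β1 against vehicle. Its effects were common to all 7 groups, so it could not remove an effect shared by a single pair of groups. Changes within such pairs alone were not tested. In the other comparisons the libraries share only a number, with correlations of -0.22 to 0.40 between same-numbered ones; the block gave 11 higher genes in ZBTB18 cells against the empty vector and 20 lower with the empty vector against the parental line, and moved no other count by over 1.5 times. With 3 libraries per group, small changes of genes that vary between replicates, such as Acss2, may go undetected.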
